A study of Mus musculus with 6 samples.

Results

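The genes described here encode the translation initiation factors of the mouse, with the inhibitory 4E-BP proteins and the kinases that act on eIF2. They were chosen by name, as the genes of the deposited count table whose symbols start with Eif1 to Eif6, leaving out pseudogenes named with -ps, with at least 100 counts summed over the 6 libraries. Of 63 rows with such names, 7 were pseudogenes and 2 had no count, which left 54 members among 47725 genes. At the limit of 100 counts, Eif4ebp3 with 103 counts lay just inside, the next member had 795 counts, and the rows left out for low counts had 0. The name and count limits themselves used no difference between the groups. However, members, groups and lists were chosen with earlier results of these data known. RNA had been sequenced from wild-type C57BL/6 naive CD4+ T cells kept for 3 days in TH17-polarizing culture, a condition that drives helper T cells towards production of IL-17. All 6 cultures shared a medium with 10% serum. It held 10 ng/ml each of the cytokines IL-23, IL-6 and TGF-β1, and 3 antibodies: 5 µg/ml against IL-4, 10 µg/ml against IFN-γ and 2 µg/ml against CD28. In 3 of them CKBA was added, a derivative of acetyl-keto-boswellic acid (AKBA), a triterpenoid of frankincense resin. The other 3 held the vehicle DMSO. The dose of CKBA and the way in which the T cell receptor was engaged were not given in the sources used here.

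Translation of most mRNAs starts when eIF2, loaded with GTP and the initiator methionyl-tRNA, joins eIF1, eIF1A, eIF3 and eIF5 on the small ribosomal subunit, and eIF4F brings this complex to the capped end of the mRNA. The step is controlled at eIF2, which stress-activated kinases phosphorylate so that it blocks its own recycling factor eIF2B, and at the cap-binding protein eIF4E, which 4E-BP proteins hold until mTORC1 phosphorylates them. T cells raise their protein synthesis strongly on activation, and both control points are known to act in them.

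Total counts per library lay between 19838347 and 25331863. In both groups replicate 3 stood apart from replicates 1 and 2: the chi-square statistic per gene was 3.33 and 2.83 between replicates 1 and 2 of DMSO and CKBA, and between 34.4 and 37.8 where replicate 3 was one of the libraries compared. Xist, expressed from the inactive X chromosome, stood between 2497 and 2731 CPM, the count per library scaled by TMM, in replicates 1 and 2 and between 1.21 and 1.27 CPM in replicate 3, while the Y-linked Ddx3y, Kdm5d and Uty stood between 38.6 and 103 CPM in replicate 3 and below 0.4 CPM in the other libraries. The labels name epidermis as the tissue but CD4+ T cells as the cell type. All 5 T cell markers examined were present, with a summed level of 1883 to 1973 CPM with DMSO and 1403 to 1562 CPM with CKBA, whereas the keratinocyte genes Krt14 and Krt1 had no count and Krt5 had 1 count in all. The fourth keratinocyte marker, Krt10, had 19 to 45 counts in every library, or 0.932 to 1.42 CPM with DMSO and 1.76 to 2.00 CPM with CKBA, higher in every CKBA library. The 2 CD8 T cell markers were present in all libraries and summed to between 35.2 and 45.7 CPM with DMSO. With CKBA they summed to between 27.3 and 32.1 CPM, lower in every CKBA library than in any DMSO library. The 3 B cell markers summed to between 12.9 and 14.3 CPM with DMSO and to between 7.69 and 31.8 CPM with CKBA, and the myeloid and fibroblast lists stayed below 4 CPM. What part these differences in marker levels have in the results below was not tested. The labels do not say whether replicates are separate cultures or animals; p-values therefore rest on the spread between these libraries, which may be technical.

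The members spanned a wide range of levels, compared between genes as the FPKM computed by the authors, which takes transcript length into account. Eif5a, a hypusine-carrying factor now known mainly for elongation, was the most abundant with 402 ± 62.1 FPKM under DMSO and 441 ± 109 FPKM under CKBA (mean ± SD, n = 3 each). Eif3h, a subunit of eIF3, followed with 312 ± 20.9 and 367 ± 0.624 FPKM, and Eif4a1, the main RNA helicase of eIF4F, had 211 ± 2.21 and 232 ± 20.2 FPKM. The next in order under DMSO, the helicase cofactor Eif4b with 194 ± 12.6 FPKM and Eif3e with 192 ± 9.75 FPKM, did not differ beyond their SD. At the other end stood Eif3j2 with 2.14 ± 0.261 FPKM and Eif4ebp3 with 0.923 ± 0.219 FPKM under DMSO. The 3 eIF2 subunit genes present in all libraries were more abundant than the 4 kinases. Eif2s2 stood at 27.5 ± 0.906 FPKM under DMSO, against 13.7 ± 0.86 FPKM for Eif2ak1 and 4.96 ± 0.315 FPKM for Eif2ak2, the most and the least abundant kinase.

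**Figure D1:**
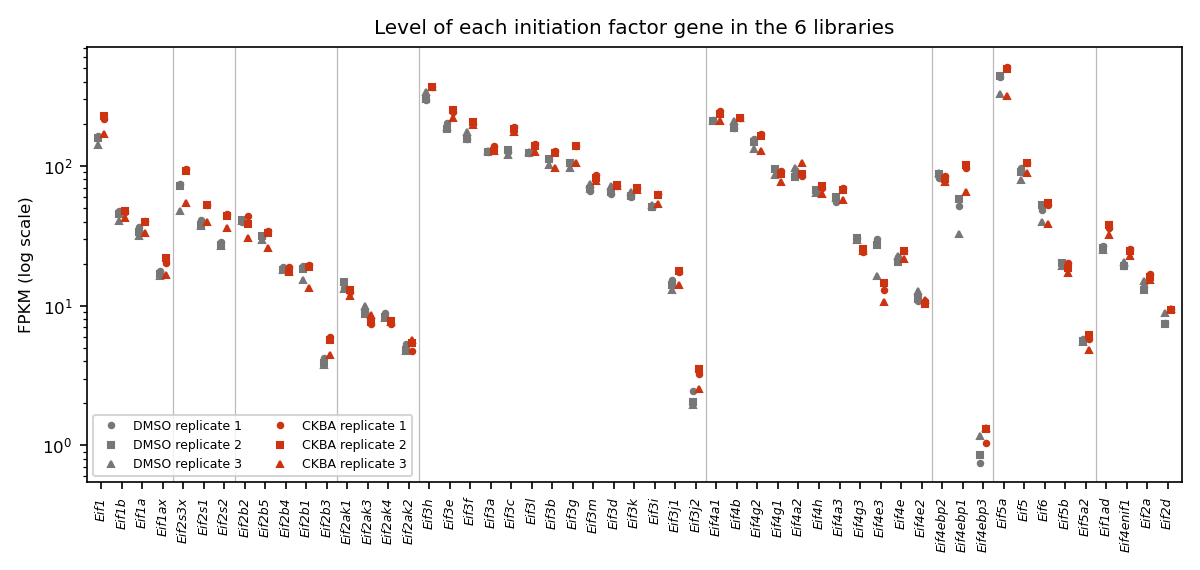
Level of 53 initiation factor genes (x axis, ordered within each group by mean level, groups separated by lines) in each of the 6 libraries, as FPKM on a log scale (y axis), with grey symbols for DMSO, red symbols for CKBA and 1 symbol shape per replicate number. Eif5a and Eif3h lie at the top, and Eif4ebp3 and Eif3j2 lie lowest.

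With CKBA, 8 members were higher and 2 lower of the 53 that passed the filter on low counts (edgeR quasi-likelihood test, Benjamini-Hochberg adjusted p under 0.05 over 13928 genes). The higher genes were Eif2s2 of eIF2, Eif3c, Eif3e, Eif3f and Eif3h of eIF3, the 4E-BP gene Eif4ebp1, and the related genes Eif1ad and Eif4enif1. The lower genes were Eif4e3 and Eif4g3 of the eIF4 group. These 10 genes were 18.9% of the members, close to the 17.1% of all tested genes called in this comparison. The split differed from that of all genes: 15.1% of members against 7.86% of all genes were called higher, and 3.77% against 9.23% were called lower. Estimates above 0 were found for 41 of 53 members (77.4%) and for 7037 of 13928 genes in all, and the median log2 fold change was 0.14 over members and 0.01 over all genes. In bulk RNA, fewer cells that express a gene and less of its RNA per cell cannot be told apart. The libraries of the 2 groups did not overlap for 19 members that were higher with CKBA and for 4 that were lower, together 43.4% of members against 36.6% of all tested genes (18.2% higher and 18.4% lower).

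The counts depended on how the replicates were treated. With the replicate number as a block, 18 members were called higher and 2 lower, or 37.7% against 28.2% of all genes (13.8% higher and 14.4% lower), and these 20 included all 10 named above. After the counts of replicates 1 and 2 were added together in each group, leaving 2 libraries a group, edgeR called no member in either direction (5 at an unadjusted p under 0.05), beside 0.732% of all genes called, and the adjusted p of the 10 genes lay between 0.157 for Eif3c and 0.479 for Eif3h. The genes gained with the block were Eif1, Eif2b3, Eif2d, Eif2s1, Eif2s3x, Eif3g, Eif3i, Eif3j1, Eif3j2 and Eif3m. Without single libraries, between 1 and 24 members were called higher and between 0 and 2 lower. The share of all genes called was not counted for these fits, so these counts do not set the members apart from other genes. The lowest count came without DMSO replicate 2, when only Eif3c was called, and the highest without CKBA replicate 3. Leaving out replicate 1 of DMSO, or replicate 1 or 2 of CKBA, left 2 called members each time. Reads of 12 members are uncertain to a degree, since at least 10% of their 50-base words also occur in other annotated genes. The 10 called genes kept their direction in every setting tried. Their groups did not overlap in any library, so leaving out or summing libraries could hardly reverse a sign. The kept direction is therefore no test of these calls.

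**Figure D2:**
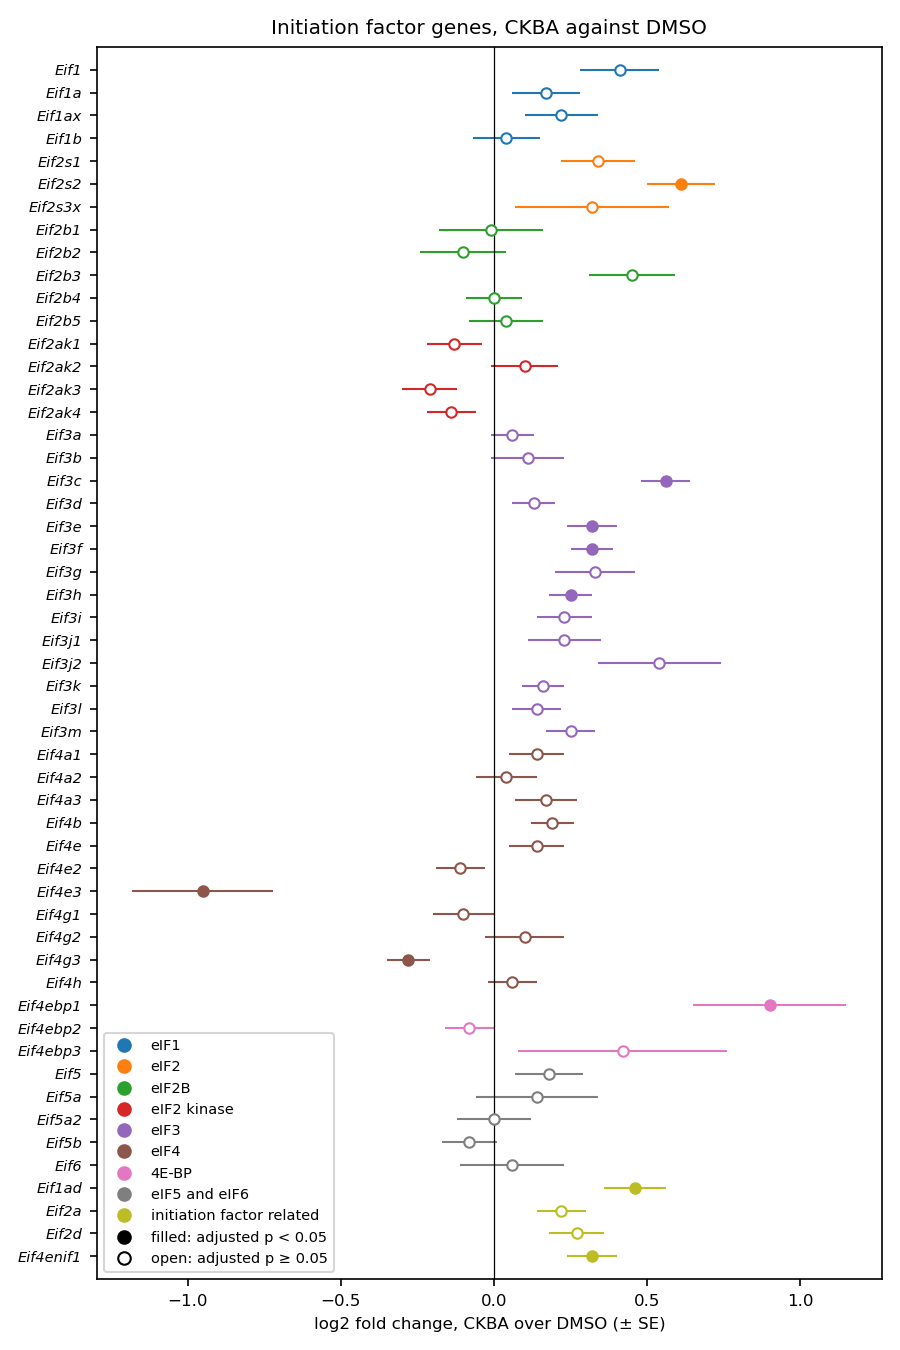
Log2 fold change of CKBA over DMSO (x axis, points with standard error bars) for the 53 tested members (y axis), coloured by group, with filled points for an adjusted p under 0.05. All 14 eIF3 genes lie to the right of 0, the eIF2 kinases lie close to 0 or to its left, and Eif4ebp1 and Eif4e3 lie farthest out in each direction.

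The eIF2 group binds the initiator tRNA, and its 3 tested genes had estimates between 0.32 and 0.61 with a median of 0.34. Eif2s2, the β subunit, stood at 194, 186 and 176 CPM in DMSO replicates 1 to 3 and at 313, 297 and 239 CPM in CKBA replicates 1 to 3. Every CKBA library lay above every DMSO library, and the lowest CKBA value came from replicate 3. The log2 fold change was 0.61 ± 0.11 (SE), with an adjusted p of 0.00942, and 0.0535 without DMSO replicate 2. Eif2s1, the α subunit that carries the phosphorylated serine, stood at 140, 130 and 123 CPM with DMSO and at 184, 179 and 135 CPM with CKBA. Its groups overlapped, because CKBA replicate 3 lay below DMSO replicate 1, and the log2 fold change of 0.34 ± 0.12 had an adjusted p of 0.101, and 0.0175 with the replicate block. Of the 50-base words in the transcripts of Eif2s2, 10.2% also occur in other annotated genes, nearly all in Gm9892, so a small part of its reads is uncertain.

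The γ subunit has a pair of genes in the mouse, Eif2s3x on the X chromosome and Eif2s3y on the Y chromosome (GRCm38, chrX:94188707-94212862, minus strand, and chrY:1010543-1028847, plus strand). Their coding sequences of 1419 bases each align without a gap and are 86.3% identical, with 194 differing bases. The first 120 coding bases, from the GENCODE M21 transcripts, show how reads of the 2 genes can be told apart, and capitals mark the 19 bases that differ.
Eif2s3x: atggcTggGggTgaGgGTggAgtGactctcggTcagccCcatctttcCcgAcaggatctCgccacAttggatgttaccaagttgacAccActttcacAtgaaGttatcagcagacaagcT
Eif2s3y: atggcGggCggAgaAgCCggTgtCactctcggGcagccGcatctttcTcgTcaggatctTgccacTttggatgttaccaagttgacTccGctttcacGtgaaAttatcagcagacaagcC
None of the 50-base words of Eif2s3y occurs in another annotated gene, whereas 34.6% of those of Eif2s3x also occur in Gm2223.

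Eif2s3y had 0, 1 and 2320 counts in DMSO replicates 1 to 3 and 0, 1 and 2805 counts in CKBA replicates 1 to 3. It was therefore present only in replicate 3 of each group, at 109 CPM under DMSO and 110 CPM under CKBA, and was not tested. Eif2s3x stood at 287, 279 and 177 CPM with DMSO and at 371, 352 and 203 CPM with CKBA. In both groups its lowest value was the library that held Eif2s3y, and the groups overlapped. The log2 fold change of Eif2s3x was 0.32 ± 0.25, with an adjusted p of 0.426, and 0.0119 with the replicate block. Eif2s3y made up 38.2% of the counts of the pair in DMSO replicate 3 and 35.0% in CKBA replicate 3.

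Added together, the pair stood at 287, 279 and 286 CPM with DMSO and at 371, 352 and 313 CPM with CKBA. The 3 DMSO sums lay close together, and all CKBA sums lay above them. The log2 fold change of the sum was 0.28 ± 0.08, with an adjusted p of 0.0485 in a test chosen after the values were seen. This p was 0.0229 with the replicate block and 0.46 with replicates 1 and 2 summed. It rose above 0.05 without replicate 1, 2 or 3 of DMSO (0.154, 0.185 and 0.0642) and without replicate 1 or 2 of CKBA (0.177 and 0.166), and was 0.00437 without CKBA replicate 3.

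**Figure D3:**
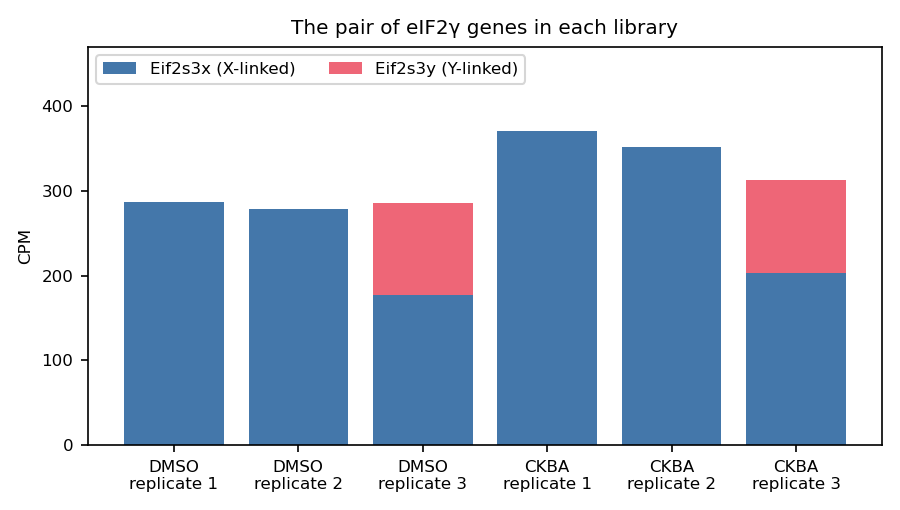
CPM (y axis) of Eif2s3x (blue) and Eif2s3y (red), stacked, in each of the 6 libraries (x axis). Eif2s3y is seen in replicate 3 of both groups, where Eif2s3x is lower, and the stacked height is 279 to 287 CPM with DMSO and 313 to 371 CPM with CKBA.

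eIF2B, the exchange factor that reloads eIF2 with GTP, showed no called gene among its 5 tested subunits, against 17.1% of all tested genes. The median log2 fold change was -0.00. Eif2b3, the γ subunit, had the smallest adjusted p of the group. It stood at 27.8, 25.5 and 23.8 CPM with DMSO and at 39.8, 37.4 and 28.6 CPM with CKBA, without overlap between the groups. Its log2 fold change of 0.45 ± 0.14 had an adjusted p of 0.0584, and 0.00993 with the replicate block. The most abundant subunit was Eif2b2, the β subunit, with 75.0, 78.4 and 73.9 CPM under DMSO and 83.9, 72.2 and 56.6 CPM under CKBA. The CKBA values of Eif2b2 lay on both sides of the DMSO values, and its log2 fold change was -0.10 ± 0.14 (adjusted p = 0.666). Estimates for the α subunit Eif2b1, the δ subunit Eif2b4 and the catalytic ε subunit Eif2b5 lay between -0.01 and 0.04.

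The 4 kinases that phosphorylate eIF2 answer to different signals, and none was called, against 17.1% of all tested genes. Eif2ak3, or PERK, which senses unfolded protein in the endoplasmic reticulum, stood at 53.8, 52.9 and 58.4 CPM with DMSO and at 45.4, 46.4 and 51.1 CPM with CKBA. All CKBA values lay below all DMSO values, with a log2 fold change of -0.21 ± 0.09 and an adjusted p of 0.137. Eif2ak4, or GCN2, which senses uncharged tRNA, also did not overlap between the groups, with 62.8 ± 3.56 CPM under DMSO and 57.0 ± 1.40 CPM under CKBA and an estimate of -0.14 ± 0.08 (adjusted p = 0.264). The most abundant kinase, Eif2ak1 or HRI, which responds to haem shortage, stood at 76.4, 84.1 and 72.2 CPM with DMSO and at 72.8, 74.2 and 65.4 CPM with CKBA. These groups overlapped, and the estimate for Eif2ak1 was -0.13 ± 0.09 (adjusted p = 0.356). Eif2ak2, or PKR, which binds double-stranded RNA, had an estimate of 0.10 ± 0.11 (adjusted p = 0.578).

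eIF3, the large scaffold that holds the small ribosomal subunit and the mRNA-bound factors together, was the largest group and had the most called genes. By share it did not lead. In eIF3 28.6% of the tested genes were called, against 1 of 3 in eIF2, 1 of 3 4E-BP genes and 2 of 4 related genes. Of the 14 tested eIF3 genes, 4 rose with CKBA and none fell. All 14 estimates lay above 0, between 0.06 for Eif3a and 0.56 for Eif3c, with a median of 0.24. Of all tested genes, 7.86% were called higher. The libraries of the groups did not overlap for 10 of the 14, against 36.6% of all genes. With the replicate block, 9 of the 14 were called higher, against 13.8% of all genes. Summed over the group, eIF3 transcripts made up 3724, 3720 and 3666 CPM in DMSO replicates 1 to 3 and 4622, 4496 and 4073 CPM in CKBA replicates 1 to 3. The sums under CKBA all lay above those under DMSO, and CKBA replicate 3 lay nearest to them.

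Eif3c, one of the largest core subunits, had the smallest adjusted p among the members. It stood at 447, 458 and 410 CPM with DMSO and at 677, 651 and 605 CPM with CKBA, far apart in all libraries. The log2 fold change was 0.56 ± 0.08 with an adjusted p of 0.00429. Eif3c was called whichever library was left out, with an adjusted p of at most 0.0332, but not with replicates 1 and 2 summed (0.157). Of its 50-base words, 7.25% also occur in Gm11224.

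Eif3e, a core subunit also linked to mRNA decay, stood at 316, 287 and 283 CPM with DMSO and at 381, 388 and 338 CPM with CKBA. All CKBA libraries were higher, the closest being 338 against 316 CPM. Its log2 fold change was 0.32 ± 0.08, with an adjusted p of 0.0361. The p rose above 0.05 without replicate 1, 2 or 3 of DMSO (0.0831, 0.156 and 0.0624) and without replicate 1 or 2 of CKBA (0.131 and 0.145).

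Eif3f and Eif3h are the MPN-domain subunits of eIF3. Eif3f stood at 453, 458 and 493 CPM with DMSO and at 586, 603 and 558 CPM with CKBA, a log2 fold change of 0.32 ± 0.07 (adjusted p = 0.0232). Eif3h, the most abundant subunit, stood at 377, 381 and 410 CPM with DMSO and at 469, 461 and 455 CPM with CKBA, a log2 fold change of 0.25 ± 0.07 (adjusted p = 0.045). For both genes replicate 3 was the highest DMSO library and the lowest CKBA library, and the groups did not overlap. Their calls were lost without replicate 1 or replicate 2 of either group, with an adjusted p of up to 0.126 for Eif3f and 0.192 for Eif3h, and 20.3% of the 50-base words of Eif3h occur elsewhere in the annotation.

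The called genes of eIF3 all encode subunits of its octamer core, the ring of PCI and MPN domain proteins formed by the a, c, e, f, h, k, l and m subunits. In the core 4 of 8 genes were called, against 17.1% of all tested genes, and the median log2 fold change was 0.25. The other 6 genes, Eif3b, Eif3d, Eif3g, Eif3i, Eif3j1 and Eif3j2, had no call and a median of 0.23, so the estimates of the 2 sets were close and a difference between the sets was not tested. With the replicate block the calls no longer set the core apart. Then 5 of 8 core genes and 4 of the other 6 were called higher, against 13.8% of all tested genes. Among these 6, Eif3g, an RNA-binding subunit, had an estimate of 0.33 ± 0.13 (adjusted p = 0.109) and Eif3d, a subunit that can bind the cap itself, one of 0.13 ± 0.07 (adjusted p = 0.229). Eif3i, Eif3k, Eif3l and Eif3m were higher in every CKBA library than in any DMSO library but were not called, with estimates of 0.23, 0.16, 0.14 and 0.25 and adjusted p-values of 0.109, 0.137, 0.253 and 0.0641. Eif3a, the largest subunit, stood at 655 ± 5.20 CPM under DMSO and 685 ± 43.4 CPM under CKBA. The values of Eif3j2, whose estimate was 0.54 ± 0.20 (adjusted p = 0.101), are uncertain, because 91.8% of its 50-base words are shared, nearly all with Eif3j1. Exons of the antisense gene Gm17638 cover 43.3% of the exonic bases of Eif3d, and the sources used here do not say whether the libraries kept strand.

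**Figure D4:**
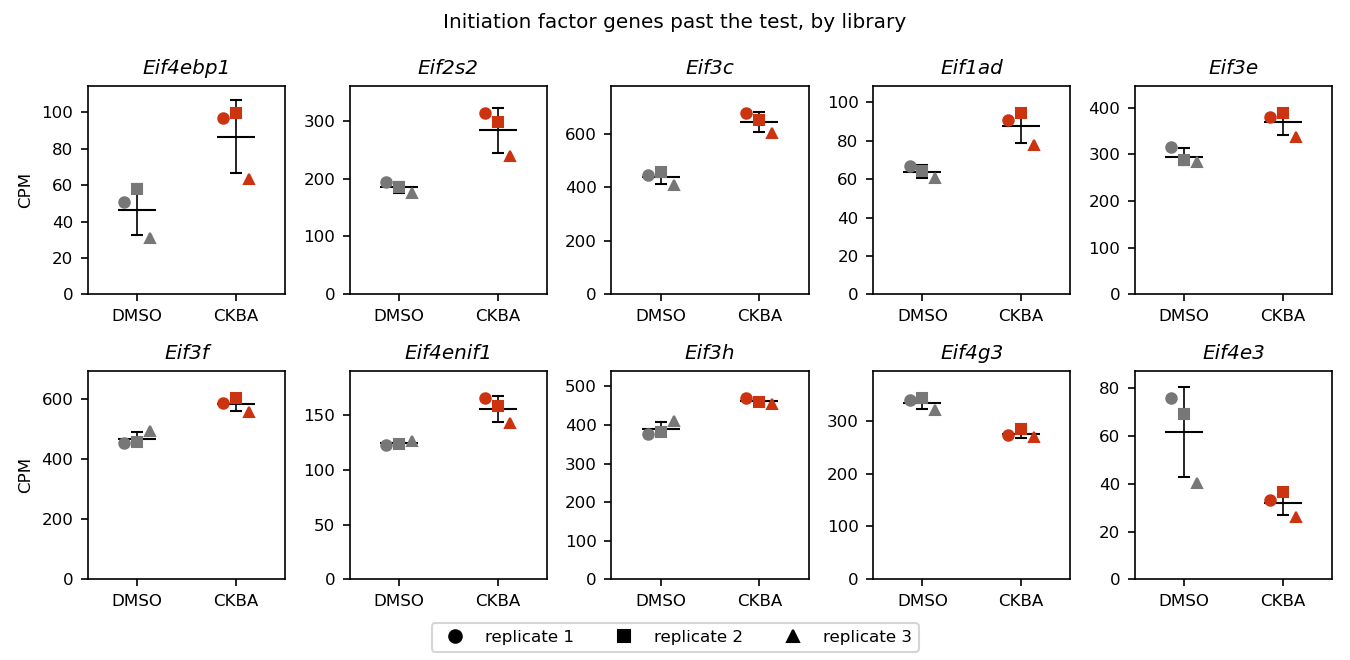
CPM (y axis, from 0) of the 10 called members in DMSO (grey) and CKBA (red) libraries, with 1 symbol shape per replicate number and bars for mean ± SD over 3 libraries. In every panel the libraries of the groups do not overlap, and replicate 3 is the lowest CKBA library. It is also the lowest DMSO library except for Eif3f, Eif3h and Eif4enif1, where it is the highest.

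The eIF4 group, which recognises the cap and unwinds the mRNA leader, had 2 genes that fell and none that rose among 11 tested. The called share of 18.2% was near the 17.1% of all tested genes, of which 9.23% were called lower. The median log2 fold change was 0.06. Eif4e3, the most divergent member of the cap-binding eIF4E family, stood at 75.7, 69.0 and 40.1 CPM with DMSO and at 33.0, 36.6 and 26.3 CPM with CKBA. The groups did not overlap, although DMSO replicate 3 at 40.1 CPM came close to CKBA replicate 2 at 36.6 CPM. The log2 fold change was -0.95 ± 0.23, with an adjusted p of 0.0295. Without DMSO replicate 3 the estimate was -1.18 (adjusted p = 0.00171). The call was lost without any other single library: the adjusted p was 0.117 and 0.122 without DMSO replicates 1 and 2, and 0.112, 0.0796 and 0.102 without CKBA replicates 1, 2 and 3. Exons of Gm20696 on the same strand overlap 14.8% of the exonic bases of Eif4e3, so part of its reads is uncertain.

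The other eIF4E genes were not called. The canonical cap-binding gene Eif4e stood at 130 ± 5.35 CPM under DMSO and 143 ± 12.3 CPM under CKBA (log2 fold change 0.14 ± 0.09, adjusted p = 0.31), and Eif4e2, which encodes a competing cap-binding protein, had an estimate of -0.11 ± 0.08 (adjusted p = 0.382). On the FPKM scale, Eif4e3 made up 47.5%, 46.2% and 31.7% of the summed eIF4E family in DMSO replicates 1 to 3 and 26.7%, 29.2% and 24.4% in CKBA replicates 1 to 3. The share was lower in every CKBA library than in any DMSO library.

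Eif4g3, a scaffold of the eIF4G family, stood at 338, 342 and 320 CPM with DMSO and at 273, 284 and 269 CPM with CKBA. The groups lay well apart, and the log2 fold change was -0.28 ± 0.07 (adjusted p = 0.0282). This call was lost without replicate 1 or replicate 2 of either group, with an adjusted p of up to 0.14. The main scaffold gene Eif4g1 had an estimate of -0.10 ± 0.10 (adjusted p = 0.51), and Eif4g2, whose product lacks the eIF4E-binding part, one of 0.10 ± 0.13 (adjusted p = 0.66). Eif4a1, the most abundant gene of the group, stood at 934, 916 and 889 CPM with DMSO and at 1103, 1027 and 899 CPM with CKBA. CKBA replicate 3 fell within the DMSO range, and the estimate for Eif4a1 was 0.14 ± 0.09 (adjusted p = 0.305). Of the 50-base words of Eif4a1, 28.4% are shared, mostly with the pseudogene Eif4a-ps4, which held 3145 counts. The second helicase gene, Eif4a2, stood at 485 ± 30.2 CPM under DMSO and 497 ± 52.8 CPM under CKBA, and it made up 30.1% ± 1.52 of the FPKM of the pair with DMSO and 28.7% ± 4.29 with CKBA (SD, n = 3 each), with overlapping libraries. Eif4b, which helps the helicase, was higher in every CKBA library, with 746 ± 32.7 and 851 ± 12.0 CPM, an estimate of 0.19 ± 0.07 and an adjusted p of 0.0971. Eif4a3, the helicase of the exon junction complex, and Eif4h, a further helicase cofactor, had estimates of 0.17 ± 0.10 and 0.06 ± 0.08.

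The 4E-BP genes encode the repressors that bind eIF4E, and 1 of 3 rose, where 7.86% of all tested genes were called higher. Eif4ebp1 stood at 50.7, 57.8 and 30.9 CPM with DMSO and at 96.7, 99.5 and 63.4 CPM with CKBA. All CKBA libraries were higher, and replicate 3 was the lowest of its group on both sides. The log2 fold change of 0.90 ± 0.25 was the largest rise among the tested members, with an adjusted p of 0.0437, and 1.84e-04 with the replicate block. Within same-numbered pairs of libraries the difference was 0.93, 0.78 and 1.04 on the log2 scale. Without the block the call was lost when replicate 1 or 2 of DMSO (adjusted p = 0.123 and 0.0735) or replicate 1 or 2 of CKBA (0.166 and 0.169) was left out. It was also lost with no filter on low counts (0.224), by limma on log2(FPKM + 1) and log2(FPKM + 0.1) (0.0572 and 0.0538), and with replicates 1 and 2 summed (0.286).

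Eif4ebp2, the most abundant 4E-BP gene by FPKM under DMSO, stood at 148, 159 and 155 CPM with DMSO and at 155, 144 and 137 CPM with CKBA, with overlapping groups and an estimate of -0.08 ± 0.08 (adjusted p = 0.501). On the FPKM scale, Eif4ebp1 made up 38.4%, 39.9% and 26.7% of the sum of Eif4ebp1 and Eif4ebp2 in DMSO replicates 1 to 3, and 53.2%, 55.7% and 45.8% in CKBA replicates 1 to 3. Eif4ebp1 was the smaller of the 2 in every DMSO library and the larger in CKBA replicates 1 and 2. Eif4ebp3 had a mean below 1 CPM in both groups, shares 65.5% of its 50-base words with an overlapping read-through gene, and had an estimate of 0.42 ± 0.34 (adjusted p = 0.432).

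Factors that act on the scanning complex or at subunit joining had no call, against 17.1% of all tested genes. Of the 4 eIF1 and eIF1A genes, Eif1, which guards start codon choice, had the smallest p, with 350, 339 and 288 CPM under DMSO and 468, 477 and 352 CPM under CKBA. Its groups did not overlap, though by only a few CPM, and the log2 fold change of 0.41 ± 0.13 had an adjusted p of 0.0674, and 0.00435 with the replicate block. Eif1a, Eif1ax and Eif1b had estimates of 0.17, 0.22 and 0.04. In the eIF5 and eIF6 group the libraries separated for no gene, against 36.6% of all tested genes, and the median was 0.06. Eif5a stood at 1044, 1056 and 765 CPM with DMSO and at 1245, 1178 and 742 CPM with CKBA, so that the spread within each group, with replicate 3 low in both, exceeded the difference between them (0.14 ± 0.20, adjusted p = 0.669). Eif5, which triggers GTP hydrolysis by eIF2, had an estimate of 0.18 ± 0.11 (adjusted p = 0.325). Estimates for Eif5a2, for the subunit-joining GTPase Eif5b and for Eif6, which keeps free large subunits from joining small ones, lay between -0.08 and 0.06.

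Related genes that carry an initiation factor name but act beside the core machinery were all higher in every CKBA library than in any DMSO library (36.6% of all genes did not overlap in either direction), and 2 of 4 were called higher (7.86% of all genes). Eif1ad, which encodes a protein with an eIF1A-like domain, stood at 67.0, 64.2 and 60.5 CPM with DMSO and at 91.0, 94.4 and 77.6 CPM with CKBA, a log2 fold change of 0.46 ± 0.10 (adjusted p = 0.0169), and antisense exons of Banf1 cover 15.3% of its exonic bases. Eif4enif1, or 4E-T, which binds eIF4E and carries it into the nucleus and P-bodies, stood at 123, 123 and 127 CPM with DMSO and at 165, 159 and 143 CPM with CKBA, a log2 fold change of 0.32 ± 0.08 (adjusted p = 0.0275). Both calls were lost without replicate 1 or replicate 2 of either group, with an adjusted p of up to 0.0766 for Eif1ad and 0.121 for Eif4enif1. Eif2d, a tRNA-delivering and ribosome-recycling factor, and Eif2a, an alternative initiator tRNA carrier distinct from the α subunit of eIF2, had estimates of 0.27 ± 0.09 (adjusted p = 0.0677) and 0.22 ± 0.08 (adjusted p = 0.104).

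Across the groups, the median log2 fold change was 0.34 for eIF2, 0.24 for eIF3, 0.42 for the 3 4E-BP genes, 0.06 for eIF4, -0.00 for eIF2B and -0.13 for the eIF2 kinases, beside 0.01 over all tested genes. The 4E-BP median is the estimate of the scarce and largely shared Eif4ebp3, and the eIF2 median was 0.548 without CKBA replicate 3. For eIF3, eIF4 and the kinases the same order was seen in each same-numbered pair of libraries. In pairs 1, 2 and 3 the medians were 0.29, 0.28 and 0.11 for eIF3 and 0.08, 0.10 and -0.02 for eIF4. Those of the kinases were -0.20, -0.14 and -0.11. The eIF2B medians of 0.16, 0.04 and -0.15 kept no fixed place. They lay above eIF4 in pair 1, below it in pair 2 and below the kinases in pair 3. Replicates 1 and 2 lay close together, so pairs 1 and 2 add little to each other. Over all members the pair medians were 0.20, 0.18 and 0.04, and 44, 42 and 33 members were higher with CKBA in pairs 1, 2 and 3. The smaller median in pair 3 went with the smaller sum of all members in CKBA replicate 3, which was 12498 CPM against 14966 and 14519 CPM in CKBA replicates 1 and 2 and between 11926 and 12923 CPM with DMSO.

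**Figure D5:**
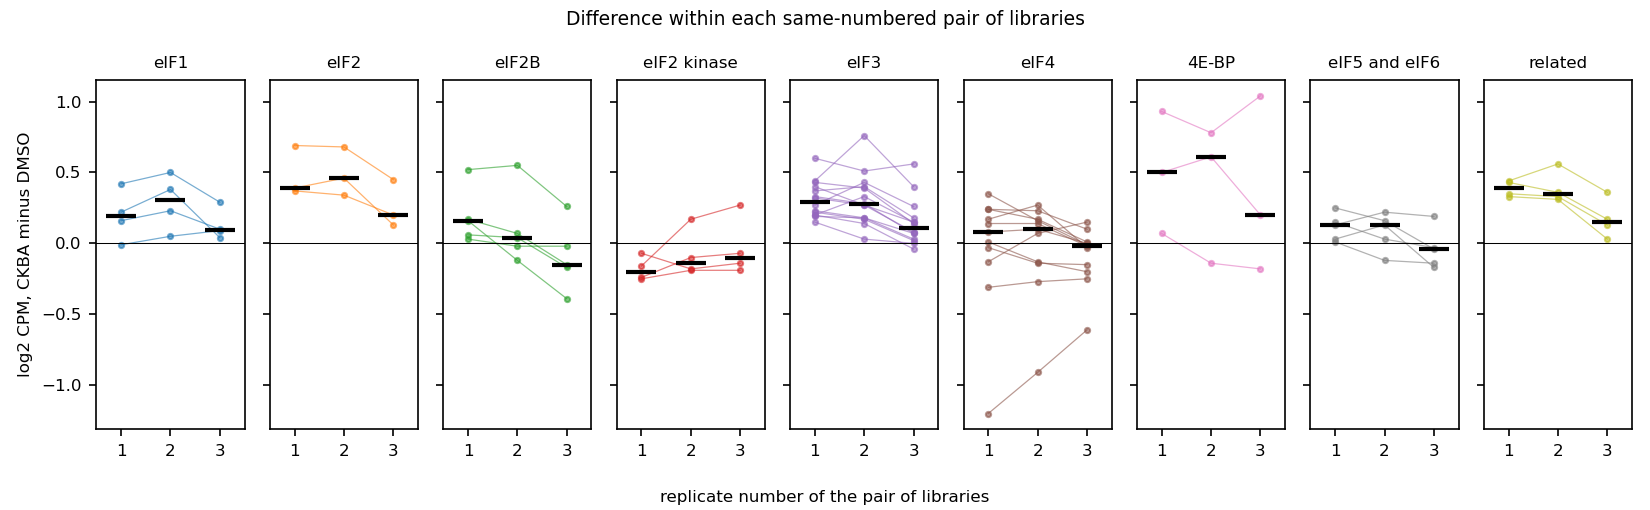
Difference in log2 CPM, CKBA minus DMSO (y axis), within each same-numbered pair of libraries (x axis, pairs 1 to 3) for each tested member (lines), by group, with black bars for the group median. The eIF3 medians of 0.29, 0.28 and 0.11 lie above 0 in all 3 pairs, and those of the eIF2 kinases, -0.20, -0.14 and -0.11, lie below 0.

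Other genes of the same steps were counted in 4 lists, which were chosen with earlier results of these data known. The counts in them, set beside the shares of all genes, therefore describe the lists and are no test of enrichment. Among regulators of eIF2 phosphorylation and its outputs, 6 of 15 tested genes rose and none fell (7.86% and 9.23% of all genes). The only regulator among the 6 was Ppp1r15b (0.24 ± 0.07, adjusted p = 0.0467). It was called in 1 of 6 fits without a single library, that without CKBA replicate 3. DESeq2 (adjusted p = 0.0505) and edgeR with replicates 1 and 2 summed (0.409) did not call it. The other regulators were not called, and their estimates lay between -0.50 for Nck2 (adjusted p = 0.0517) and 0.17. With the replicate block 2 genes of this list were called lower, where 14.4% of all genes were. They were Nck2 (adjusted p = 0.0358) and Dnajc3 (adjusted p = 0.026). Trib3, a pseudokinase induced by ATF4, went from 12.3 ± 1.55 to 108 ± 5.33 CPM (log2 fold change 3.13 ± 0.11, adjusted p = 3.73e-05). Atf4, the transcription factor whose mRNA is translated better when eIF2 is phosphorylated, went from 159 ± 11.7 to 297 ± 23.6 CPM (0.91 ± 0.09, adjusted p = 0.00106). Its relative Atf5 rose by 2.38 ± 0.10 on the log2 scale (adjusted p = 8.85e-05) and the glutathione-degrading enzyme gene Chac1 by 4.30 ± 0.62 (adjusted p = 0.00453). The size of the Chac1 change is uncertain, since its DMSO counts were 2, 6 and 34, and the estimate ran from 3.81 to 6.04 when single libraries were left out. The estimate for Atf4 was close to the 0.90 of Eif4ebp1, and those for Trib3, Atf5 and Chac1 exceeded those of all tested members.

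Among elongation and release factors 5 of 10 tested genes rose and none fell, with a median of 0.33, where 7.86% of all genes were called higher and 9.23% lower. Eef1b2, an exchange factor subunit for eEF1A, rose by 0.52 ± 0.07 (adjusted p = 0.00301), Eef1g, another subunit of that factor, by 0.44 ± 0.08 (adjusted p = 0.0113), and Eef1a1, which delivers aminoacyl-tRNA, by 0.33 ± 0.06 (adjusted p = 0.0101). The elongation factor kinase Eef2k rose by 0.59 ± 0.14 (adjusted p = 0.0239). Of 13 tested mTORC1 and S6 kinase genes, 3 rose and none fell. Among them were Sesn2, a stress-induced sestrin gene (2.26 ± 0.12, adjusted p = 1.98e-04), and the ribosomal protein gene Rps6 (0.44 ± 0.06, adjusted p = 0.0049), while Tsc2, a gene of the tuberous sclerosis complex, had an estimate of -0.16 ± 0.08 (adjusted p = 0.192). Of 28 other proteins of initiation or its control, 2 rose and none fell, a share close to that of all genes called higher: Pabpc4, a poly(A)-binding protein gene (0.38 ± 0.09, adjusted p = 0.0322), and Denr, a recycling and reinitiation factor gene (0.40 ± 0.10, adjusted p = 0.0339). Both were called in 1 of 6 fits without a single library, that without CKBA replicate 3. The next in that list were Gigyf1, an eIF4E2 partner in translational repression (-0.37 ± 0.11, adjusted p = 0.0501), and Bzw2, which encodes a mimic of eIF5 (0.42 ± 0.12, adjusted p = 0.0513). Over the 4 lists together 16 genes were higher and none lower, while 1 was called lower with RLE size factors and 2 by DESeq2. With the replicate block 21 were higher and 4 lower, where 13.8% and 14.4% of all genes were. The 16 became 7 when replicate 1 or 2 of DMSO or replicate 1 of CKBA was left out, and 8 when replicate 2 of CKBA was. The share of all genes called was not counted for these fits. With replicates 1 and 2 summed the 16 became 3, where 0.372% of all genes were called higher.

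The promoters of the members, taken from RefSeq (GRCm38.p6) as the 250 bases before and 50 after each start, were found for 43 of the 54 genes and searched on both strands for a pair of motifs. TGATGNAA, the composite element bound by C/EBP and ATF factors, occurred in 1 of 43 members (2.33%, Eif2s3x) and in 4.13% of protein-coding genes. CACGTG, the E-box bound by Myc and related factors, occurred in 10 of 43 members (23.3%) and in 8.91% of protein-coding genes. The 10 were Eif1b, Eif3a, Eif3f, Eif3k, Eif4a1, Eif4e, Eif4g1, Eif4h, Eif5a and Eif5a2, of which Eif3f was called. A match is a run of letters and not a measured site. The promoters of Eif4ebp1 and Eif4e3, the members with the largest rise and the largest fall, were not among those found. They were therefore not searched. Shown here are bases before the first annotated start for Eif2s2 and Eif3c, the promoters in the table of the largest risers, which hold neither motif, and for Eif3f, with the E-box in capitals at position -68 from the RefSeq start, together with the 30 bases around the match in Eif2s3x, which lie inside the gene as GENCODE annotates it, in capitals on the opposite strand at position -96. Eif3f and Eif2s3x were chosen after their values were seen. The regions, in that order, are chr2:154892936-154893156 and chr7:126566412-126566616 on the minus strand, chr7:108934165-108934414 on the plus strand and chrX:94212729-94212758 on the minus strand.
Eif2s2: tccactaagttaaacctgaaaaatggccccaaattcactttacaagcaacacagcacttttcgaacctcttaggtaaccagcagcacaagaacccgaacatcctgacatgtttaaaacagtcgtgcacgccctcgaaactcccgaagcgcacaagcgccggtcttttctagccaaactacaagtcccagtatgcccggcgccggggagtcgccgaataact
Eif3c: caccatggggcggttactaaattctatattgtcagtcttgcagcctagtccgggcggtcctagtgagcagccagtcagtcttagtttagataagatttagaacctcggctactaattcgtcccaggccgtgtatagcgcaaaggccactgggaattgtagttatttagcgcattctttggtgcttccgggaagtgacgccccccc
Eif3f: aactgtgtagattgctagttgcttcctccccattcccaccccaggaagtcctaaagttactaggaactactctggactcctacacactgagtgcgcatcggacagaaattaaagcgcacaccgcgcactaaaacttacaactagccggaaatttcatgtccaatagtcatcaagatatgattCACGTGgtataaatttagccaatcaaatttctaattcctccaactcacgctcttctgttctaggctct
Eif2s3x: ttcgccatcatTTTCATCAggtctatgccg

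The authors' deposited table marked 860 genes as significant, all with an absolute log2 fold change of at least 1 and an FDR of at most 0.0494, and no member was among them. By the FDR of the authors' deposited table alone, 7 members were under 0.05. They were Eif1, Eif2s2, Eif3c, Eif4e3, Eif4ebp1, Eif1ad and Eif4enif1, and 6 of them were also called here. For Eif3c the authors' deposited table gives a log2 fold change of 0.54, for Eif4ebp1 0.86 and for Eif4e3 -0.96.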

How the data were processed

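Members, groups and lists were chosen with earlier results of these data known. The authors' deposited table held whole-number expected counts per gene and library, tied to RSEM and the GRCm38 build per the submitters' processing notes (CASAVA 1.8; aligner and annotation release not given in the sources used here). RSEM shares a read that fits several genes out among them. The authors also deposited FPKM per library, used for levels between genes and in an alternative test, and their own log2 fold changes, p-values and FDR, tied to edgeR per the submitters' processing notes. Libraries were made from TRIzol-extracted total RNA with a TruSeq kit, per the labels' protocols.

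The test was that of edgeR 4.0.16 under R 4.3.3 (quasi-likelihood F test with robust dispersions, TMM, filterByExpr, Benjamini-Hochberg adjustment over 13928 genes, threshold 0.05), on 3 CKBA and 3 DMSO libraries with no covariate. CPM are counts scaled to library size after TMM, and fold changes are log2 of CKBA over DMSO ± SE. Total counts per library were 19838347 to 25331863. The fit was tested on simulated data, in which replicate 3 was not set apart. It recovered 21 of 50 genes changed 1.5-fold and 44 of 50 changed 2-fold, and called 14 of 13728 unchanged genes. A member that was not called is therefore not shown to be unchanged. Alternatives used DESeq2 1.42.0, limma 3.58.1 on log2(FPKM + 1) and log2(FPKM + 0.1), other size factors and filters, and left-out or summed libraries.

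Same-numbered libraries deviated together from their group means (r = 0.326, 0.295 and 0.463 over genes for numbers 1, 2 and 3), so the numbers were taken to pair the samples by a rule of r above 0.1 in every pair. Replicates 1 and 2 were also correlated across numbers (0.302 and 0.305), and replicate 3 against the others gave -0.39 to -0.367.

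Shared 50-base words, overlaps and coordinates came from GENCODE M21 (GRCm38), where all 54 members were found. Members past the threshold are given in full, as are those with the smallest adjusted p and the highest FPKM in each group, and, by smallest adjusted p, up to 4 genes per list. Ppp1r15b, Nck2 and Dnajc3 are named besides these. Promoter bases after the first annotated start were not shown, except the 30 bases around a match in Eif2s3x. Of the listed symbols, Gcn1 was matched by its older name. One gene covered by that naming rule is not reported here.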

Additional observations from a re-analysis of the deposited data

Results flagged for a closer look

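The CKBA effect differed between replicate 3 and replicates 1 and 2 for 11 of 53 members, by an edgeR interaction test added after the data were seen (adjusted p under 0.05 over all genes; 20.8% of members against 16.5% of all tested genes). Replicate 3 had 1 library per group, so the spread in this test came from replicates 1 and 2 alone, which lay close together, and the sex-linked RNA, the replicate and any other difference between these libraries cannot be told apart. For 10 of the 11 the difference was negative. It was -0.41 for Eif2b2 (adjusted p = 0.00189), whose estimates within pairs were 0.16, -0.12 and -0.39. In the eIF2 and related genes it was -0.30 for Eif2s1 (0.0135), -0.29 for Eif2a (0.0306) and -0.27 for the catalytic eIF2B subunit Eif2b5 (0.0408). In eIF3 it was -0.27 for Eif3g (0.0335) and -0.25 for Eif3m (0.0371). Elsewhere it was -0.26 for Eif1ax (0.0489), -0.26 for Eif4a3 (0.0384), -0.25 for Eif4e (0.0486) and -0.25 for Eif5a (0.0245). Eif4e3 was the exception, with a difference of 0.44 (adjusted p = 0.00709): it was lower with CKBA by 1.2 and 0.91 on the log2 scale in pairs 1 and 2 and by 0.61 in pair 3.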

How the results depend on the processing

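Against 8 members called higher and 2 lower, other size factors (RLE), a filter on mean CPM, DESeq2 and limma gave 6 to 10 higher and 2 lower. With no filter on low counts 8 were higher and 0 lower (9.73% of all genes called): Eif4g3, Eif4e3, Eif3h and Eif4ebp1 were lost (adjusted p of 0.0587, 0.134, 0.0787 and 0.224), and Eif1 and Eif2b3 were gained. The replicate block gave 18 higher, and 2 lower. Replicate 3 against the others as a block of 2 levels, added after the data were seen, gave 23 and 3 (35.5% of all genes called). With replicates 1 and 2 of each group summed, edgeR called 0 in each direction, with 5 members at an unadjusted p under 0.05, beside 0.732% of all genes called. Without replicate 3 of both groups 32 were higher and 4 lower (52.8% of all genes called). Leaving out 1 library gave 1 to 24 higher and 0 to 2 lower, with no share of all genes counted for these fits. For the lists of other genes the 16 higher and 0 lower (3 lower at an unadjusted p under 0.05) became 7 to 24 and 0 to 4 when 1 library was left out, 3 higher when summed, 32 and 13 without replicate 3 of both groups, and 26 and 5 with the block of 2 levels. In the lists the lower count was also 1 with RLE, 2 with DESeq2, 2 with no filter and 4 with the replicate block, where 21 were higher. Among group medians, that of eIF2 was 0.548 without CKBA replicate 3, that of the 4E-BP genes ranged from 0.297 to 0.61 without single libraries, and was 0.556 without replicate 3 of both groups and 0.213 by limma on log2(FPKM + 1), where the pseudocount is close to the level of Eif4ebp3. The median of the related genes was 0.37 without replicate 3 of both groups. No called estimate changed sign, for which the lack of overlap between the groups in these genes left little room. Apart from the shifts in medians given here, the causes of which were not tested, medians moved by less than the spread between libraries. That spread was the SD, pooled over DMSO and CKBA, of the median deviation of the group's genes in each library. At 3 libraries a group, with replicate 3 apart, estimates of one size fell on both sides of the threshold: that of Eif3h and that of Eif3m were both 0.25, with adjusted p of 0.045 and 0.0641.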
